A study of Mus musculus with 18 samples.

Results

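The Hoxa genes, Meis1 and Pbx3 form the best known target set of the MLL-AF9 fusion, and 9 of them were followed here: Hoxa2, Hoxa3, Hoxa5, Hoxa6, Hoxa7, Hoxa9 and Hoxa10 on mouse chromosome 6, Meis1 on chromosome 11 and Pbx3 on chromosome 2. A gene entered by name when a probe set of the array was assigned to it alone, and each of the 9 had exactly 1 such probe set, out of 22180 genes with a probe set of their own. Hox proteins are homeodomain transcription factors that mark position in the embryo and, in blood, are high in stem and progenitor cells and fall as the cells mature. Meis1 and Pbx3 belong to the TALE class of homeodomain proteins, which bind DNA together with Hox proteins and raise their affinity and selectivity for their sites. MLL fusions hold the Hoxa cluster and Meis1 active through chromatin complexes that include menin and the histone methyltransferase DOT1L, and the pairing of Hoxa9 with Meis1 is known to transform myeloid progenitors.

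RNA was measured on 18 whole-transcript expression arrays from 2 kinds of mouse bone marrow cells. The leukemia cells (AML) were GFP+ cells carrying MLL-AF9, sorted from leukemic mice. The normal cells (LSK) were Lin-ckit+sca1+ cells, a sorting gate that enriches for blood stem cells and early progenitors. The cells came, per the labels, from 4F mice, which carry transgenes for Oct4, Sox2, Klf4 and c-Myc (OSKM) that doxycycline (Dox) switches on, so the control groups hold the transgenes too. Each cell type was cultured for 24 h as a control, with Dox, or with the cocktail VC6T. Its components were VPA, which blocks histone deacetylases, CHIR, which blocks the kinase GSK3, 616452, which blocks the TGF-beta receptor kinase, and TCP, which blocks the histone demethylase LSD1. This gives 6 groups of 3 arrays, named AML Control, AML Dox, AML Compound, LSK Control, LSK Dox and LSK Compound. The labels call the arrays biological repeats and do not say whether they came from separate mice or cultures. The p-values therefore reflect only how far these arrays scatter, part of which may be technical.

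LSK Compound replicate 1 was left out: over all probe sets it correlated with the other arrays at 0.638 to 0.672, while the other 17 correlated with each other at 0.904 or more. LSK Compound replicates 2 and 3 also stood apart from the other LSK arrays in sex-linked transcripts. On them the female-specific RNA Xist read 7.32 to 7.35, against 9.28 to 9.77 on the LSK Control and LSK Dox arrays, and the Y-linked Uty read 5.03 to 5.13. Of the 4 OSKM factors, Klf4 was higher with Dox by 5.87 (log2) in AML and 4.38 in LSK cells, and Myc was lower in both (-4.10 and -0.60). Sox2 (1.31) and Pou5f1 (0.67), the Oct4 gene, were called higher in AML Dox and not in LSK Dox (0.30 and 0.15). Whether the probe sets read the transgenes was not tested. The progenitor marker Cd34 read 9.34 to 10.12 on all LSK arrays in the analysis, 8.63 to 9.10 in AML Control and AML Compound, and 3.17 to 3.86 in AML Dox. All 10 myeloid progenitor markers were above the 40th percentile of the array on all AML arrays and on all LSK arrays in the analysis. In AML Dox 8 of them fell and 1 rose, with Mpo going from 10.54 to 6.94 and Ctsg from 10.60 to 4.50 (means). Ly6a, which encodes the gate marker Sca1, had no probe set of its own.

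The sequence just upstream of the gene start is shown for 3 of the genes, because their Dox responses below differ: Hoxa2 had the largest rise among the 9 genes in AML cells, Hoxa9 rose in AML cells and was not called in LSK cells, and Meis1 rose in both. The sequences are from RefSeq on build GRCm38.p6, 250 bases ending at the base before the annotated start. All 3 lie on the minus strand: Hoxa2 at chr6:52164832-52165081, Hoxa9 at chr6:52227371-52227620 and Meis1 at chr11:19018970-19019219. Capitals mark matches, on either strand, to any of 6 motifs.

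Hoxa2: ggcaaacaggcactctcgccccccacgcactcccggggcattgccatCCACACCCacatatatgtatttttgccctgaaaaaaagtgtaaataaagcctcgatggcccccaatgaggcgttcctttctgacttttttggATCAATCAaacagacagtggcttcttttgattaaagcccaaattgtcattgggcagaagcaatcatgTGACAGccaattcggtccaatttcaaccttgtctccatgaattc
Hoxa9: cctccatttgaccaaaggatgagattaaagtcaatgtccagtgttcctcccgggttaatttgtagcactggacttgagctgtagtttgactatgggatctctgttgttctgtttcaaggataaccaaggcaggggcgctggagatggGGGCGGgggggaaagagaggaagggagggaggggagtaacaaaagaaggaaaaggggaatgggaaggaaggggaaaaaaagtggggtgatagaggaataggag
Meis1: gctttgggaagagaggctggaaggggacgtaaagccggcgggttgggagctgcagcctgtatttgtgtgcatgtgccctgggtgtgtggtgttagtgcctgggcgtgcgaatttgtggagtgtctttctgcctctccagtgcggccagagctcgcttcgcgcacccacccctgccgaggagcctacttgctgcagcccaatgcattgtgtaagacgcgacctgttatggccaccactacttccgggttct

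The Hoxa2 window held the Meis motif TGACAG, the Hox-Pbx motif TGATNNAT (read on the other strand) and CCACACCC, a motif of the Klf type. Of all 32851 promoter windows of the same length, 15.9% held TGACAG, 7.7% TGATNNAT and 3.2% CCACACCC. The Hoxa9 window held the Sp-type GC box GGGCGG, found in 32.7% of all windows. The Meis1 window held none of the 6 letter strings. Promoter windows were at hand for 8 of the 9 genes, 9 windows in all with 2 for Hoxa10. Among them TGACAG matched in Hoxa2 and Hoxa3, and GGGCGG in Hoxa6, Hoxa9 and Hoxa10. The Myc E-box CACGTG (6.0% of all windows) and the Oct4 octamer ATGCAAAT (1.6%) matched in 0 of the 9 windows. A match describes the letters of the window and not a bound site.

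The first question was how far the target genes are set apart in untreated leukemia cells. All 9 were higher in AML Control than in LSK Control, from 1.41-fold for Meis1 to 10.6-fold for Hoxa5. Past the threshold of limma's test (Benjamini-Hochberg adjusted p under 0.05 over 16912 genes), 14.7% of all genes were higher in AML Control, 13.6% were lower and 28.4% differed in either direction. The arrays of the groups did not overlap for any of the 9 genes, as was the case for 42.4% of all genes. The median difference was 2.11 on the log2 scale over the 9 genes and 0.00 over all genes tested. In bulk RNA a difference in the share of expressing cells and a difference in RNA per cell cannot be told apart.

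Hoxa9, the Hox gene most tied to myeloid leukemia, read 7.71, 7.86 and 7.89 on the AML Control arrays and 5.73, 5.34 and 5.71 on the LSK Control arrays. The lowest AML array lay far above the highest LSK array, and the difference was 2.23 (SE 0.15, 4.68-fold, limma adjusted p = 3.83e-09). Hoxa5, whose product also acts in lung and skeletal patterning, read 7.14, 7.18 and 7.08 against 3.86, 3.51 and 3.81. This was the largest difference of the 9 (3.41, SE 0.18, limma adjusted p = 1.71e-10). Its neighbour Hoxa6 read 7.64, 7.36 and 7.51 against 4.60, 4.40 and 4.61, a 7.81-fold difference.

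The other Hoxa genes differed by less. Hoxa3 was higher by 2.11 (SE 0.11), Hoxa2 by 1.67 (SE 0.19), Hoxa7 by 1.57 (SE 0.09) and Hoxa10 by 1.33 (SE 0.14), with limma adjusted p between 1.56e-10 and 3.18e-06. Hoxa3 was near background in LSK cells: it lay under the 40th percentile of the array, the level used as a floor for testing, on LSK Control replicates 1 and 2. With such values set to that level its difference was 2.06. The other 8 genes were above this level on all 17 arrays.

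The TALE partners differed from each other in this comparison. Pbx3 read 6.52, 6.56 and 6.57 on the AML Control arrays and 3.82, 3.79 and 3.71 on the LSK Control arrays, a 6.85-fold difference (limma adjusted p = 6.38e-13). Meis1 read 8.72, 8.74 and 8.63 against 8.08, 8.23 and 8.30. Its difference of 0.50 (SE 0.09, limma adjusted p = 0.000246) was the smallest of the 9, though the arrays still did not overlap. With all 18 arrays in the fit Meis1 was not called here (adjusted p = 0.998), and 8 genes were. Meis1 RNA was thus well above background in the normal progenitors as well.

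**Figure D1:**
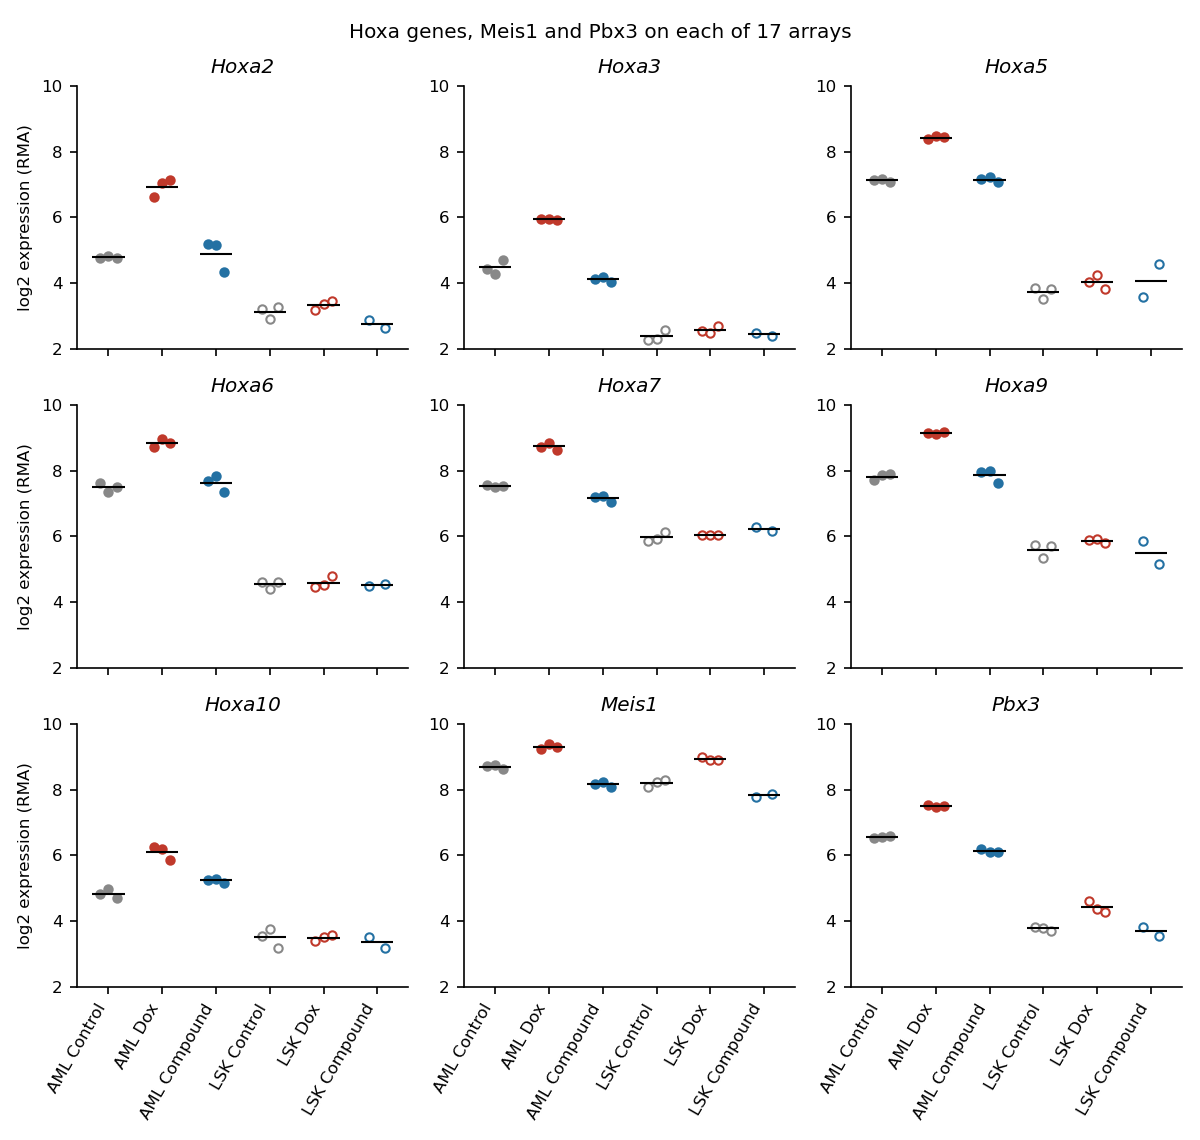
Log2 expression (RMA, y axis) of each of the 9 genes on the 17 arrays, by group on the x axis. Points are arrays, bars are group means, and LSK Compound has 2 arrays. For the 7 Hoxa genes and Pbx3 every AML array lies above every LSK array, while for Meis1 the LSK Dox arrays (8.89 to 8.995) lie above the AML Control arrays (8.63 to 8.74).

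Marker levels of the untreated groups differed too. The summed linear level of 8 granulocyte markers was 44.7 to 46.0 on the AML Control arrays and 806 to 904 on the LSK Control arrays, with 3 and 6 of the 8 above the floor. That of the 8 stem and progenitor markers with a probe set was 576 to 611 in AML Control and 1603 to 1676 in LSK Control. Xist read 2.38 to 2.63 in AML Control and 9.28 to 9.56 in LSK Control. The Y-linked Uty, Kdm5d and Eif2s3y read at most 1.999, 2.272 and 2.126 in AML Control. In LSK Control they read at most 1.784, 1.985 and 2.018. All these Y-linked values were under the testing floor of 2.32 to 2.41, so the low Xist in AML Control came without Y-linked signal. The part of these differences in the values of the 9 genes was not tested.

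The second comparison asked how the target genes differed with Dox in leukemia cells. No cells without the transgenes were treated, so effects of Dox itself and of OSKM cannot be told apart. All 9 rose in AML Dox against AML Control, and none of their arrays overlapped. The rises ran from 1.53-fold for Meis1 to 4.42-fold for Hoxa2. Among all genes tested, 22.3% were called higher, 24.7% lower and 47.0% in either direction, and 54.3% had arrays that did not overlap. The median log2 change was 1.29 over the 9 genes and -0.01 over all genes. The count of 9 held in each of the 28 alternative analyses except the one that brings back LSK Compound replicate 1, in which Meis1 was not called (limma adjusted p = 0.683). That array alone reads 4.07 for Meis1, against 7.77 and 7.87 on the other LSK Compound arrays.

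Among the 3′ to middle genes of the cluster, Hoxa2, a patterning gene of the hindbrain and branchial arches, read 4.78, 4.82 and 4.78 in AML Control and 6.61, 7.05 and 7.15 in AML Dox. Its change of 2.14 (SE 0.19, limma adjusted p = 3.64e-08) lay at the 97.6th percentile of all genes. Hoxa3, which acts in thymus and parathyroid formation, read 4.45, 4.29 and 4.72 in the controls and 5.94, 5.96 and 5.93 with Dox. The Dox arrays lay close together and above all controls, and the change was 1.46 (SE 0.11, limma adjusted p = 3.94e-09).

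The changes of the next genes of the cluster were of like size. Hoxa5 went from 7.08 to 7.18 in the controls to 8.37 to 8.47 with Dox (1.29, SE 0.18), Hoxa6 from 7.36 to 7.64 to 8.71 to 8.97 (1.34, SE 0.13) and Hoxa7 from 7.50 to 7.58 to 8.63 to 8.85 (1.20, SE 0.09). Hoxa9 read 9.15, 9.13 and 9.16 on the AML Dox arrays, above the control values given above, a 2.51-fold rise (SE 0.15 log2, limma adjusted p = 7.15e-07). Hoxa10, a progenitor factor of the posterior cluster, read 4.83, 4.98 and 4.70 in the controls and 6.24, 6.19 and 5.85 with Dox (1.26, SE 0.14, limma adjusted p = 6.78e-07). For the 6 genes of the set from Hoxa3 to Hoxa10 the log2 rises thus lay between 1.20 and 1.46, and their standard errors between 0.09 and 0.18.

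Meis1 and Pbx3 rose by less than any Hoxa gene of the set. Pbx3 read 7.54, 7.48 and 7.50 with Dox, a change of 0.96 (SE 0.10, limma adjusted p = 1.29e-07). Meis1 read 9.24, 9.40 and 9.29, a change of 0.61 (SE 0.09, limma adjusted p = 9.26e-06) at the 85.5th percentile of all genes. Over the same comparison 4 of 8 stem and progenitor markers fell and 2 rose, and their summed level was 576 to 611 in AML Control and 83.6 to 88.5 in AML Dox. Kit, the stem cell factor receptor, read 6.16 to 6.28 in AML Control and 3.0 to 3.89 in AML Dox. The part of this shift in the rise of the 9 genes was not tested.

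The same Dox treatment was then read in normal LSK cells. Meis1 and Pbx3 rose and the 7 Hoxa genes were not called. The count of 2 of 9 genes higher stands beside 8.87% of all genes higher, 9.43% lower and 18.3% called in either direction. For the 7 Hoxa genes limma called 0, and 0 had an unadjusted p under 0.05. With all 18 arrays in the fit neither Meis1 (adjusted p = 1) nor Pbx3 (adjusted p = 0.174) was called. Both were called in the other alternatives, including the fit without the LSK Compound group. Markers moved in this comparison as well: 7 of 10 myeloid progenitor markers fell and 2 rose, 3 of 4 tested mast cell and basophil markers and 4 of 6 tested granulocyte markers fell, and 3 of 8 stem and progenitor markers rose and 2 fell. The summed level of 10 myeloid progenitor markers was 2591 to 2982 in LSK Control and 1138 to 1295 in LSK Dox, that of 8 granulocyte markers 806 to 904 and 552 to 615, and that of 6 mast cell and basophil markers 184 to 192 and 41.3 to 46.8. Their part in the changes of Meis1 and Pbx3 was not tested.

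Meis1 read 8.08, 8.23 and 8.30 in LSK Control and 8.995, 8.89 and 8.90 in LSK Dox, all Dox arrays above all controls (0.73, SE 0.09, 1.66-fold, limma adjusted p = 8.72e-06). Pbx3 read 4.62, 4.37 and 4.29 with Dox against at most 3.82 in the controls (0.65, SE 0.10, 1.57-fold, limma adjusted p = 8.44e-05). These changes lay at the 96.3rd and 95.6th percentiles of all genes. Hoxa9 read 5.88, 5.93 and 5.80 with Dox, just above its control arrays, and its change of 0.28 (SE 0.15) missed the threshold (limma adjusted p = 0.247). Its 95% interval ran from -0.04 to 0.59. In this comparison the arrays did not overlap for 3 of the 9 genes, Meis1, Pbx3 and Hoxa9, and for 35.2% of all genes.

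The 6 remaining Hoxa genes had overlapping arrays in LSK Dox and LSK Control. Their log2 changes ran from -0.01 (Hoxa10) to 0.32 (Hoxa5), with limma adjusted p between 0.271 and 0.971. The bounds of their 95% intervals bear on the size that could have been missed: the upper bound was 0.27 for Hoxa7, 0.29 for Hoxa10, 0.33 for Hoxa6, 0.42 for Hoxa3, 0.62 for Hoxa2 and 0.70 for Hoxa5. Each of these lies below the change of the same gene in AML cells. Hoxa2, Hoxa3 and Hoxa10 had low levels in LSK Control (means 3.125, 2.38 and 3.50). Whether low signal narrowed their changes was not tested.

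The difference between the Dox responses was tested directly. The Dox change of all 7 Hoxa genes was higher in AML than in LSK cells. Of all genes 18% were called higher in this test, 20.7% lower and 38.8% in either direction. The excess was 1.93 for Hoxa2 (SE 0.27, limma adjusted p = 1.69e-05), 1.28 for Hoxa6, 1.27 for both Hoxa3 and Hoxa10, 1.12 for Hoxa7, 1.05 for Hoxa9 (SE 0.21, adjusted p = 0.000645) and 0.97 for Hoxa5 (SE 0.25, adjusted p = 0.00519). Hoxa5 missed the threshold with all 18 arrays (adjusted p = 0.0934).

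For Meis1 the difference between the responses was -0.12 (SE 0.12, limma adjusted p = 0.512) with a 95% interval from -0.37 to 0.14. An excess of the size seen in the Hoxa genes thus lies outside the interval for Meis1. Pbx3 had a difference of 0.30 (SE 0.13) with an interval from 0.02 to 0.59 and missed the threshold (limma adjusted p = 0.0877). It passed without LSK Dox replicate 1 (adjusted p = 0.0188) and after quantile normalization (adjusted p = 0.0241).

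**Figure D2:**
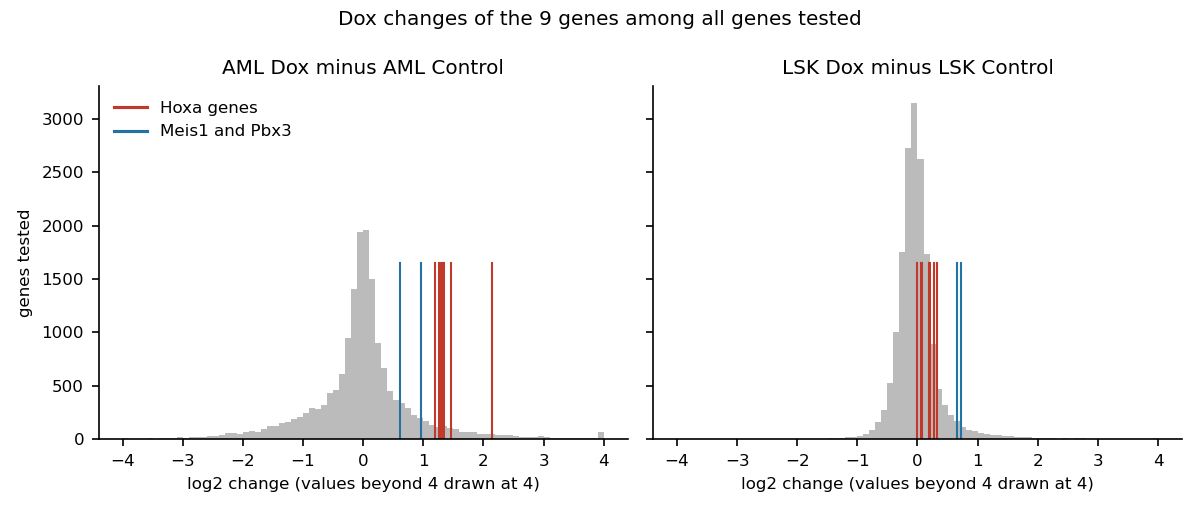
Histograms of the log2 change under Dox (x axis) over all 16912 genes tested (y axis, number of genes), in AML cells (left) and LSK cells (right). Red lines mark the 7 Hoxa genes and blue lines Meis1 and Pbx3: in AML cells all 9 lie right of 0.6, and in LSK cells Meis1 (0.73) and Pbx3 (0.65) lie right of all Hoxa genes (at most 0.32).

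The compound cocktail gave another pattern in leukemia cells. Of the 9 genes 4 fell (Meis1, Pbx3, Hoxa7 and Hoxa3), 1 rose (Hoxa10) and 4 were not called (Hoxa2, Hoxa5, Hoxa6 and Hoxa9). Among all genes 18.5% were called lower, 12.3% higher and 30.8% in either direction. The arrays did not overlap for the 5 genes called, as for 40.6% of all genes. The median log2 change was 0.02 over the 9 genes and -0.03 over all genes. AML Compound and AML Dox were set against the same control arrays.

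Meis1 read 8.18, 8.24 and 8.09 in AML Compound, all below its control arrays, a fall of 1.44-fold (log2 change -0.53, SE 0.09, limma adjusted p = 0.000132). Pbx3 read 6.18, 6.09 and 6.10, also below its controls (-0.43, SE 0.10, limma adjusted p = 0.00194). Hoxa7 read 7.20, 7.22 and 7.06 (-0.38, SE 0.09, limma adjusted p = 0.00389). These 3 calls were lost only with all 18 arrays (adjusted p = 0.947, 0.403 and 0.0947).

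Hoxa3 and Hoxa10 rested on thinner margins. Hoxa3 read 4.14, 4.19 and 4.03 with the cocktail against a lowest control of 4.29 (-0.36, SE 0.11, limma adjusted p = 0.0187). It was not called without AML Control replicate 3 (adjusted p = 0.12) or without AML Compound replicate 3 (adjusted p = 0.0691). Hoxa10 read 5.26, 5.28 and 5.16 against a highest control of 4.98 (0.40, SE 0.14, limma adjusted p = 0.0409). Leaving out 1 array ended this call for AML Control replicates 1 and 3, each AML Compound array and LSK Dox replicate 2, with adjusted p from 0.0501 to 0.148. The count of 5 genes became 3 without AML Control replicate 3 or AML Compound replicate 3.

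Hoxa9 itself read 7.95, 7.99 and 7.63 in AML Compound, on both sides of its control mean of 7.82. Its change was 0.04 (SE 0.15) with a 95% interval from -0.28 to 0.35. Hoxa5 (0.02, SE 0.18), Hoxa6 (0.13, SE 0.13) and Hoxa2 (0.10, SE 0.19) likewise had overlapping arrays. On AML Compound replicate 3, Hoxa2 (4.33), Hoxa6 (7.36) and Hoxa9 (7.63) were the lowest of their group. Monocyte and macrophage markers were higher in the same comparison, with a summed level of 575 to 605 in AML Control and 2099 to 2459 in AML Compound, and 7 and 8 of 8 above the floor. Their part in the changes of the 9 genes was not tested.

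In LSK cells Meis1 was lower with the cocktail, and limma called none of the other 8 genes. This count of 1 lower and 0 higher stands beside 19.3% of all genes called lower, 13.9% higher and 33.2% in either direction. The LSK Compound arrays also differed from LSK Control in sex-linked transcripts, with Uty at 5.03 to 5.13 against 1.58 to 1.78. The cocktail and whatever lies behind that difference cannot be told apart in this comparison. Meis1 read 7.77 and 7.87 on the LSK Compound arrays against at least 8.08 in the controls (-0.38, SE 0.10, limma adjusted p = 0.00458). Without LSK Compound replicate 2 it missed the threshold (adjusted p = 0.0551). Leaving out 1 array of this pair leaves a single array, which is then assumed to vary like the other groups. Of the 7 Hoxa genes, 1 had an unadjusted p under 0.05. That gene, Hoxa7, read 6.28 and 6.17 against 5.87, 5.91 and 6.14 in LSK Control (0.26, SE 0.10, limma adjusted p = 0.0648), and it was called without LSK Control replicate 3 (adjusted p = 0.0187), so that 2 genes passed.

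The LSK Compound pair disagreed on some genes. Hoxa5 read 3.58 on replicate 2 and 4.57 on replicate 3, and Hoxa9 read 5.85 and 5.14. Hoxa5 was called higher than in LSK Control without replicate 2 (0.85, adjusted p = 0.000810, with 1 LSK Compound array and the spread taken from the other groups) and not with both arrays (0.35, SE 0.20, limma adjusted p = 0.221). Arrays did not overlap for Meis1, Hoxa7 and Hoxa2 and for 52.5% of all genes. The summed granulocyte markers were 157 to 166 on these arrays against 806 to 904 in LSK Control. The summed monocyte and macrophage markers were 2118 to 2279 against 848 to 929, but this list did not rise as a whole. Of its 8 markers tested, 3 rose and 2 fell, and the median log2 change was -0.05, as over all genes. The part of these marker differences in the values above was not tested.

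Between the cell types the cocktail responses differed past the threshold for 1 gene. The sex-linked difference between LSK Compound and LSK Control arrays enters this test as well and cannot be told apart from the cocktail. Hoxa7 changed by -0.38 in AML and 0.26 in LSK cells, a difference of -0.63 (SE 0.14, limma adjusted p = 0.00304). Among all genes 8.24% were called lower in this test and 16.6% in either direction. The count rose to 2 without AML Compound replicate 3 (Hoxa2), without AML Control replicate 2 (Hoxa3) or without LSK Compound replicate 2 (Hoxa5, with 1 LSK Compound array left). It was 3 without LSK Control replicate 3 (Hoxa3 and Hoxa10 besides Hoxa7). For Meis1 the responses were -0.53 and -0.38, with a difference of -0.15 and a 95% interval from -0.42 to 0.13.

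**Figure D3:**
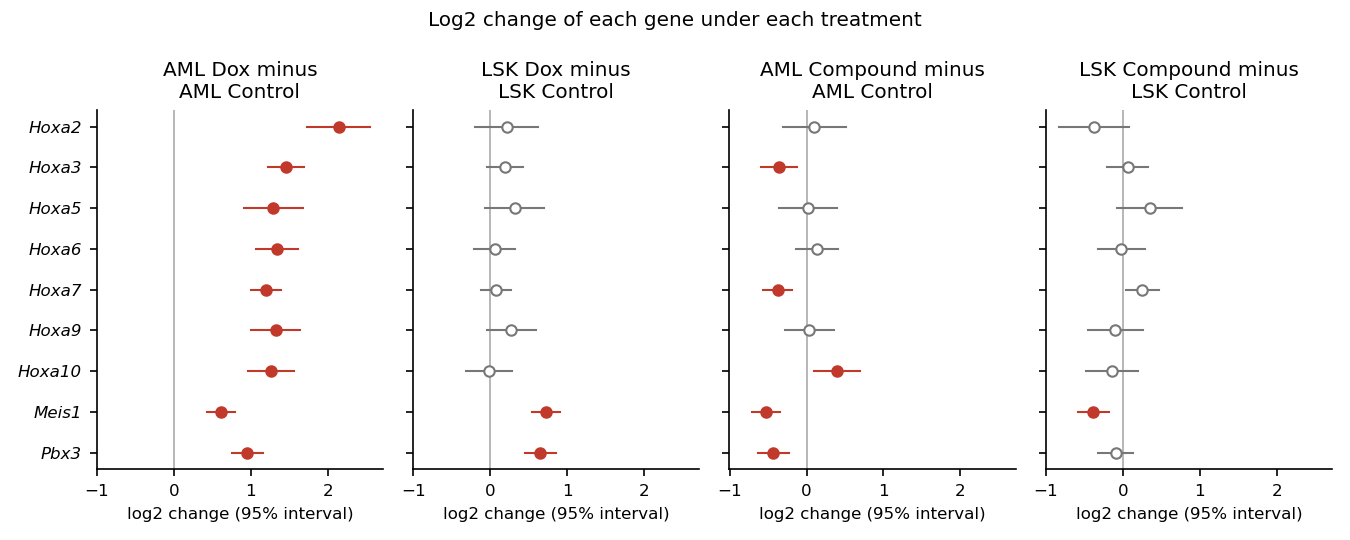
Log2 change of each gene (x axis) with its 95% interval under Dox and under the compound cocktail in AML and LSK cells, 1 panel per comparison. Filled red points passed limma's adjusted p threshold of 0.05 and open grey points did not: 9 passed in AML Dox, 2 in LSK Dox, 5 in AML Compound and 1 in LSK Compound.

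Dox and the cocktail were also compared with each other. In AML cells all 9 genes were higher with Dox than with the cocktail, by 0.86 (Hoxa10) to 2.04 (Hoxa2) on the log2 scale, with limma adjusted p of 6.24e-05 or less. Of all genes 22.4% were higher in this comparison and 46.2% differed in either direction, and 51.4% had arrays that did not overlap, as all 9 genes did. Meis1 differed by 1.14 (SE 0.09) and Pbx3 by 1.39 (SE 0.10). In LSK cells 3 genes were higher with Dox, beside 17.3% of all genes higher, 14.1% lower and 31.4% in either direction: Meis1 by 1.11 (SE 0.10, limma adjusted p = 5.94e-08), Pbx3 by 0.75 (SE 0.11, limma adjusted p = 2.39e-05) and Hoxa2 by 0.59 (SE 0.22, limma adjusted p = 0.0456). The Hoxa2 call was lost when any of 10 single arrays was left out, with adjusted p from 0.0517 to 0.266, among them both LSK Compound arrays, where 1 array is left.

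Across the 6 groups each Hoxa gene and Pbx3 kept all AML groups above all LSK groups, with AML Dox highest. Within the AML groups, AML Compound and AML Control overlapped for Hoxa2, Hoxa5, Hoxa6 and Hoxa9 and did not for Hoxa3, Hoxa7, Hoxa10 and Pbx3. Meis1 followed another order, with LSK Dox above AML Control. Its group means were 9.31 in AML Dox, 8.93 in LSK Dox, 8.70 in AML Control, 8.20 in LSK Control, 8.17 in AML Compound and 7.82 in LSK Compound. Of neighbours in that order, LSK Control and AML Compound had overlapping arrays and the other pairs did not.

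The likeness of these profiles was measured as the root mean square difference between 6 centred group means, as a description only. Among the 9 genes the closest pair was Hoxa5 with Hoxa6 (0.15 log2), neighbours on the chromosome, followed by Hoxa9 with Pbx3 (0.20) and Hoxa3 with Hoxa9 (0.21). The farthest was Hoxa5 with Meis1 (1.66). Outside the set, the genes nearest to Hoxa9 out of 14833 compared were Tsc22d2 (0.16), Zxdb (0.26), Baz2b (0.28), Zxda (0.29) and Naip5 (0.31), where Hoxa9 itself spans 3.65 from its lowest to its highest group mean. Tsc22d2 and Baz2b were also the nearest to Pbx3 (0.22 and 0.24), followed by Naip2 (0.25), Zxdb (0.31) and Fnbp1l (0.36). Nearest to Meis1 were Sptan1 (0.10), which encodes the cytoskeletal protein alpha spectrin, Il31ra (0.11), Trim8 (0.13), Arhgap23 (0.13) and Acap3 (0.15).

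The rest of the Hoxa cluster showed where along the chromosome the Dox rise was seen. Hoxa4 lies between Hoxa3 and Hoxa5 and rose with Dox in AML cells by 1.03 (SE 0.14, limma adjusted p = 4.51e-06). Hoxa4 differed from its neighbours otherwise: AML and LSK Control differed by 0.34 (limma adjusted p = 0.0721), and in LSK cells it fell with Dox (-0.60, adjusted p = 0.00505) and with the cocktail (-0.58, adjusted p = 0.00669). The antisense RNA gene Hoxaas3 was higher in AML Control by 0.92 and rose with Dox in AML cells by 0.93 (limma adjusted p = 2e-05). Whether its probe set also reads the Hoxa transcripts around it was not tested. Hoxa13, at the 5′ end, was called in none of these comparisons (-0.06 in AML Dox, limma adjusted p = 0.734), and its group means of 2.38 to 2.54 were near the floor as well.

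**Figure D4:**
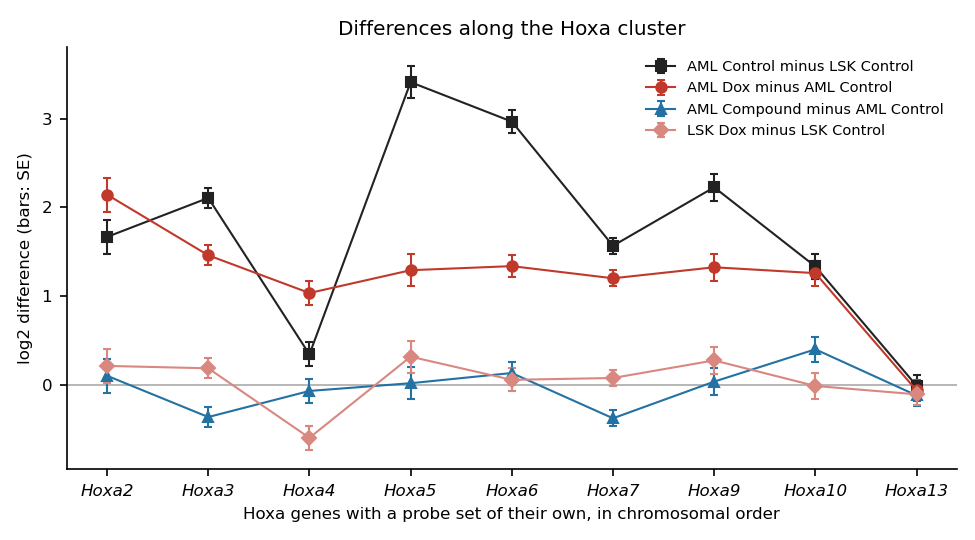
Log2 difference (y axis, bars are SE) of the 9 Hoxa genes with a probe set of their own, in chromosomal order from Hoxa2 to Hoxa13 (x axis), for 4 comparisons. The AML Dox change lies between 1.03 and 2.14 from Hoxa2 to Hoxa10 and at -0.06 for Hoxa13, while the AML against LSK Control difference peaks at Hoxa5 (3.41) and drops to 0.34 at Hoxa4.

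Counts in this and the following gene lists stand beside the shares of all genes called higher and lower. These were 22.3% and 24.7% in AML Dox, 8.87% and 9.43% in LSK Dox, and 12.3% and 18.5% in AML Compound. They were 13.9% and 19.3% in LSK Compound, and 14.7% and 13.6% in AML against LSK Control. Genes on either side of the cluster did not share 1 direction. Of 10 genes tested, 5 rose and 3 fell with Dox in AML cells, among them Skap2 (0.62), an adaptor protein gene next to the cluster, and Snx10 (0.77) higher and the heterochromatin protein gene Cbx3 (-1.71) and Hibadh (-0.51) lower. Skap2 was also higher in AML than in LSK Control, by 1.59 (limma adjusted p = 2.31e-10).

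The other Hox clusters were mostly not called. Of 9 Hoxb genes tested, Hoxb4 rose with Dox in AML cells (0.54, SE 0.17, limma adjusted p = 0.0127) and was lower in AML than in LSK Control (-0.50, adjusted p = 0.0337). Hoxb13 rose with the cocktail in LSK cells (0.51, adjusted p = 0.0207). limma called 0 of 6 Hoxc and 0 of 7 Hoxd genes for Dox or the cocktail in either cell type and between the controls. At an unadjusted p under 0.05 the Hoxc count was 0 in each, and the Hoxd count was 1 in AML Dox, 2 in LSK Dox, 1 between the controls and 0 with the cocktail. These genes were near background, with group means of 2.17 to 2.78 for Hoxc and 2.03 to 3.45 for Hoxd genes beside a testing floor of 2.32 to 2.41, so that a fall could hardly be seen. The Cdx genes, which act upstream of Hox genes in the embryo, gave 0 of 3 in each and 0 at an unadjusted p under 0.05.

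Of 10 other TALE genes tested, only Irx3 was called in AML Dox, and it rose (0.42, SE 0.13, limma adjusted p = 0.0152). limma called 0 in LSK Dox, where 1 had an unadjusted p under 0.05. With the cocktail in AML cells 3 fell and 0 rose: Tgif1 (-0.63), Pknox1 (-0.62), whose product also binds Pbx proteins, and Pbx2 (-0.50). In LSK cells Pknox1 fell with the cocktail too (-0.97, adjusted p = 0.00017).

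Cofactors of MLL fusions moved both ways under Dox. Of 22 genes of the MLL and DOT1L complexes, 5 rose and 13 fell in AML cells, with a median of -0.29. Aff4 (2.39) and Mllt3 (2.28), which encode elongation factors, rose, the latter being the AF9 gene itself. Wdr5 (-2.12) and Dpy30 (-1.08), core subunits of the H3K4 methyltransferase complexes, fell. The probe set of Mllt3 may also read the fusion transcript, and the exons that it covers were not examined here. In LSK cells 1 rose with Dox (Mllt3, 0.72) and 6 fell, among them Dpy30 (-0.30) and Ctr9 (-0.38). With the cocktail 4 rose and 10 fell in AML cells, and 3 rose and 11 fell in LSK cells; Mllt6 rose (0.85 and 1.59) and Ash2l (-0.67 and -0.75) and Wdr5 (-0.65 and -0.86) fell in both.

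Genes tied to Hoxa9 and Meis1 in leukemia, their targets and partners, moved both ways while the 9 genes rose. Of 29 tested, 12 rose and 13 fell with Dox in AML cells, with a median log2 change of -0.11 against -0.01 over all genes. Camk2d, a calcium-dependent kinase (3.64), and Trib1, a pseudokinase (3.73), rose, while Cd34 (-5.23) and Myc (-4.10), which encodes a transcription factor and is 1 of the 4 OSKM factors, fell. In LSK cells with Dox 4 rose and 13 fell: Eya1 (1.17) and Camk2d (1.28) rose, and Bcl2, an inhibitor of apoptosis (-1.28), and Myb (-0.69) fell. With the cocktail 11 rose and 5 fell in AML cells, led by Hif1a (2.64), Mef2c (1.48) and Igf1r (1.46), and 10 rose and 11 fell in LSK cells, among them Hif1a (2.63) and Cebpa (-1.55). Between the controls, Gfi1 (2.49) and Eya1 (2.20) were among 8 genes higher in AML cells, and Flt3 (-4.09) and Bcl2 (-2.65) among 11 lower.

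Of 11 other genes of the MLL-AF9 program, 6 rose and 1 fell with Dox in AML cells, with a median of 0.22. Cpeb2, an mRNA-binding translation factor, rose by 4.07, Lpp by 3.34 and Tcf4 by 1.54, and the heterochromatin protein gene Cbx5 fell (-2.34). In LSK cells with Dox 3 rose, Mecom (0.95), Cpeb2 (0.80) and Lpp (0.68), and Cbx5 fell (-0.37). With the cocktail 3 rose and 3 fell in AML cells, with Lpp (2.29) and Tcf4 (1.16) higher and Hmgb3 (-1.03) lower. Jmjd1c, a chromatin regulator, was the gene of this list with the smallest p between the controls, 2.01 higher in AML cells (limma adjusted p = 8.43e-12).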

How the data were processed

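The deposited table holds log2 values for 41345 probe sets, which the authors computed with RMA (per the submitters' processing notes). For the RMA version and the genome build, nothing is given in the sources used here. Platform annotation assigned 23521 probe sets to 1 gene, 1814 to several, and did not list 16010. Symbols were checked against RefSeq (23328 probe sets matched, 0 updated). The probe set with the highest mean represented a gene. Genes above the 40th percentile of the array on at least 2 arrays were tested (16912).

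The values were used with no further scaling in limma 3.58.1 (R 4.3.3): 17 arrays, 1 mean per group, 11 residual degrees of freedom, Benjamini-Hochberg adjustment over all genes in each of 9 comparisons, threshold 0.05. The fit was tested on simulated data. Arrays carry no read depth, and their number limits the precision (median SE 0.12 for AML Dox against control, 0.14 for LSK Compound). Percentiles are ranks of signed changes over all genes tested. Marker sums add linear values.

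Members and gene lists were chosen with earlier results of these data known. All 9 members are named, and from each list up to 4 genes with the smallest adjusted p per comparison. Marker genes and the sex-linked Xist, Uty, Eif2s3y and Kdm5d were picked from marker lists after their values were seen. Promoter windows are RefSeq's, cut to the 250 bases before the start. Protein sequences were not used here. Alternatives: replicate block, arrays left out, only the groups compared, centring, quantile normalization, array weights, other filters, a floor, all 18 arrays, and, chosen after seeing the data, a fit without the LSK Compound group.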

Additional observations from a re-analysis of the deposited data

Results flagged for a closer look

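The Dox response differed between AML and LSK cells past the threshold of limma's interaction test for 7 of the 9 genes, in each case higher in AML cells with 3 arrays in each of the 4 groups. The log2 difference between the responses was 1.93 for Hoxa2, 1.28 for Hoxa6, 1.27 for Hoxa3 (1.273) and for Hoxa10 (1.272), 1.12 for Hoxa7, 1.05 for Hoxa9 and 0.97 for Hoxa5. The response to the compound cocktail differed for Hoxa7, by -0.63. Of all genes tested 38.8% and 16.6% differed in these tests.

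LSK Compound replicate 1, which was left out of the comparisons above except in the alternative with all 18 arrays, read above every LSK Control array for Hoxa3 (3.12), Hoxa10 (3.77) and Pbx3 (4.75). Its median over all probe sets was 3.23, against 2.65 to 2.75 on the other arrays. Abundant transcripts read low on it, with Gapdh at 5.49, B2m at 4.155, Eef2 at 5.62 and Actb at 4.56. On the other LSK Compound arrays they read at least 11.87, 12.26, 10.69 and 8.86. The values of Hoxa3, Hoxa10 and Pbx3 on this array are therefore not read as a result about these genes. No formal test for an outlying array was run. LSK Compound replicate 1 correlated with the other 17 arrays at 0.638 to 0.672, and those 17 with each other at 0.904 or more.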

How the results depend on the processing

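The values of the 9 genes were recomputed under up to 28 alternatives, 2241 values in all. Of these, 2187 kept their direction and their side of the threshold or, where 30 of them changed sign, were called in neither analysis. A call was lost in 39, gained in 14 and reversed in 1: Hoxa5 was 0.47 higher in LSK Dox than in LSK Compound (limma adjusted p = 0.0468) without LSK Compound replicate 3, -0.53 (adjusted p = 0.0236) without replicate 2, and -0.03, not called, with both; each of the first 2 values rests on 1 LSK Compound array, assumed to vary like the other groups.

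Counts of genes called moved as follows. With all 18 arrays the count was 0 for AML Compound, 0 for LSK Compound, 0 for LSK Dox, 0 for the difference of the cocktail responses and 1 for LSK Dox against LSK Compound. It was 8 for AML Dox, 8 for AML against LSK Control and 8 for AML Dox against AML Compound, where Meis1 was lost (adjusted p = 0.683, 0.998 and 0.291), and 6 for the difference of the Dox responses. The Meis1 estimates in these 3 comparisons were the same as in the main fit (0.61, 0.50 and 1.14). The fit shares its estimate of the spread over all groups, which then includes the array brought back. The part of that array in the other lost calls was not tested. LSK Compound against control gave 2 with the 60th percentile filter, 2 with quantile normalization and 2 with values under the 40th percentile set to it. Leaving out 1 array gave 3 to 5 for AML Compound, 1 to 2 for LSK Compound, 1 to 3 for the difference of the cocktail responses, 2 to 4 for LSK Dox against LSK Compound and 7 to 8 for the difference of the Dox responses. It left 9 for AML Dox, 9 for AML against LSK Control, 9 for AML Dox against AML Compound and 2 for LSK Dox. Centring each array on its median ended the Hoxa10 call in AML Compound (adjusted p = 0.0524), and the fit on only the groups compared ended that of Hoxa3 (adjusted p = 0.0632).

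Deviations of same-numbered arrays from their group means correlated at -0.12 to 0.10 over 40 pairs, with 1 above 0.1. With so few arrays per group, and no pairs of unlike number set beside them, these values cannot exclude a pairing by replicate number. With the replicate block Hoxa2 was no longer called in LSK Dox against LSK Compound (0.60, adjusted p = 0.0637), which left 2 genes there, and the other counts were as without it. The second probe set alternative changed nothing, since each gene had 1. Levels near background limit Hoxa3 in LSK cells. Hoxa2 (group means 2.75 to 3.34) and Hoxa10 (3.36 to 3.50) were low in LSK cells too, though above the floor on every array in the fit. Every comparison with LSK Compound is limited by its 2 arrays and by their difference from the other LSK arrays in sex-linked transcripts.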
